A study of Mus musculus with 24 samples.

Results

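Expression of 10 genes of the ATF4 amino acid stress response was followed in C2C12 cells, an established mouse myoblast line that divides in serum-rich medium and fuses into multinucleated myotubes when serum is lowered. The genes were taken by name: the transcription factor genes Atf4, Atf5 and Ddit3, the stress effector genes Trib3, Chac1 and Sesn2, and the biosynthetic enzyme genes Asns, Phgdh, Psat1 and Shmt2. They and the lists of related genes were chosen with earlier results of these data known. Counts set beside the shares of all genes are therefore descriptions of a chosen set. All 10 were found among the 24043 gene symbols of the deposited expression table. The table gives FPKM, fragment numbers scaled to transcript length and to the mapped fragments of the library, for 8 RNA-seq libraries in 4 groups of 2. Growth medium was DMEM with 10% fetal bovine serum, and cells in it were kept below confluence. Differentiation medium was DMEM with 2% horse serum and the ITS supplement, on cells seeded into wells at a set number. Each medium was used at 21% oxygen (normoxia) and at 2% oxygen (hypoxia), and every group had a replicate A and a replicate B, which the design text calls biological. The day of harvest and the length of the hypoxic exposure are not given in the sources used here, and how the replicates were kept apart is not described, so the p-values measure the spread between these libraries. Medium, serum type and cell density differed together between the growth and differentiation groups and cannot be told apart.

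Amino acid shortage, unfolded protein in the endoplasmic reticulum, haem shortage and double-stranded RNA each activate a kinase that phosphorylates the translation initiation factor eIF2. General translation then slows, while the Atf4 mRNA, which carries short upstream reading frames, is translated more efficiently, and ATF4 protein turns on genes for amino acid synthesis, amino acid uptake and tRNA charging. ATF4 often binds as a partner of a C/EBP protein to a composite of a C/EBP and an ATF half-site, known as the amino acid response element. In muscle the pathway is known for its response to mitochondrial dysfunction and to starvation, with secretion of the hormones FGF21 and GDF15.

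The promoters of the 10 genes were read for the letters of this element. Promoter windows from 250 bases before to 50 after each RefSeq start (build GRCm38.p6) were found for 10 of the 10 genes and searched on both strands for the composite letters TGATGNAAN, read as NTTNCATCA on the other strand. Windows of 3 genes, Asns, Chac1 and Trib3, held a match (30% of the genes), against 3.95% of all 32851 promoter windows. The first share is counted by gene, over 12 windows, and the second by window, so the 2 are not strictly alike. The same 3 genes had the largest rises of the 10 in differentiation medium at 21% oxygen. In hypoxic growth medium, however, Atf5, without a match, rose more (log2 change 3.98) than Chac1 (3.30) and Asns (2.34). A link between the letters and the size of the changes was not tested. Stretches around the matches are shown for all 3 genes. They are printed 5′ to 3′ along the gene's strand, in lower case, with the matched letters in capitals. The Asns stretch is chr6:7693210-7693287 (minus strand, bases -78 to -1 from the start), the Chac1 stretch chr2:119350993-119351111 (plus strand, bases -249 to -131) and the Trib3 stretch chr2:152344030-152344056 (minus strand, bases 5 to 31 after the start).
Asns: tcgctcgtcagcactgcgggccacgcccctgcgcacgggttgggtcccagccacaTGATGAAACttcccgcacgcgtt
Chac1: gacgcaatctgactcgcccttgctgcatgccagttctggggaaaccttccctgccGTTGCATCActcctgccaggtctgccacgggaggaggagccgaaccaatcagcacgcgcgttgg
Trib3: tagctcaggTTTACATCAgccgggcgg
The match in Asns began 23 bases before the start, that in Chac1 194 bases before it, and that in Trib3 lay just inside the transcript. In Asns the letters read TGATGAAAC along the gene, whereas in Chac1 and Trib3 the composite lay in the opposite orientation, as GTTGCATCA and TTTACATCA. Of 57 genes with a window in 5 lists of related genes (eIF2 axis, amino acid enzymes, transporters, tRNA synthetases and other ATF4-linked genes), 15 held the letters (26.3%). The ATF palindrome TGACGTCA was in 1.79% of all windows and TGACGTGG in 0.676%, and neither was in a window of the 10 genes. A match is a description of letters and no measurement of binding, and a window without one says nothing about the factor.

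Relative depth, estimated from the smallest steps of low values, ran from 0.633 to 1, both ends of the range being libraries of hypoxic differentiation medium (B and A). The oxygen treatment was visible in the libraries: all 10 genes of a hypoxia check list rose in hypoxic growth medium and 9 of 10 in hypoxic differentiation medium (limma, adjusted p under 0.05). Of all genes tested, 13.5% and 37.5% were higher there. The check genes did not follow oxygen alone. With differentiation medium at 21% oxygen 6 of the 10 rose and 0 fell (median log2 change 0.80), where 25.5% of all genes were higher. In the medium by oxygen interaction 1 was higher and 6 were lower. Summed FPKM of 8 myoblast and myotube markers was 401 to 485 in normoxic growth medium, 108 to 115 in hypoxic growth medium, 4528 to 4607 in normoxic differentiation medium and 64.8 to 89.5 in hypoxic differentiation medium. The 2 hypoxic differentiation libraries stood apart from each other, with a summed FPKM of 12 proliferation genes of 153 in replicate A and 501 in replicate B, where the other 6 libraries lay between 108 and 387. Of the markers of other cell types, Ptprc, Krt18 and Plin1 were at most 0.0137 FPKM in every library. Pecam1, Cdh5, Kdr, Epcam and Rbfox3 were at most 0.0894. Itgam reached 0.141 and Cdh1 0.657, both in normoxic differentiation medium. Adipoq was above 0 only in hypoxic differentiation medium (0.126 and 0.133), and Fabp4 was at 0.111 to 1.18 in all libraries. Cd68 of the leukocyte list and Tubb3 of the neural list were present throughout at higher levels. Cd68 was at 1.76 to 3.57 FPKM in the first 3 groups and at 25.8 and 42.8 in hypoxic differentiation medium. Tubb3 was at 13.3 to 15.1 FPKM in the growth medium libraries, and in differentiation medium at 3.91 and 4.21 with 21% oxygen against 36.8 and 65.7 with 2%. The part of these differences in the results that follow was not tested. In bulk RNA, fewer cells of a type and less RNA per cell cannot be told apart.

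The 10 genes rose with hypoxia in growth medium and with differentiation medium at 21% oxygen, whereas with hypoxia in differentiation medium none rose and most fell. In hypoxic growth medium 10 of 10 were higher than in normoxic growth medium (limma, Benjamini-Hochberg adjusted p under 0.05), where 13.5% of the 12389 genes tested were higher and 28% lower. In differentiation medium at 21% oxygen 10 of 10 were higher than in growth medium at 21% oxygen, where 25.5% of all genes were higher and 41% lower. Both comparisons use the normoxic growth medium libraries, and each of the 4 comparisons shares libraries with 2 others. In differentiation medium, 2% against 21% oxygen gave 0 genes higher, 7 lower and 3 not past the threshold, where 37.5% of all genes were higher and 27.7% lower. Without hypoxic differentiation replicate A or replicate B, 1 gene was higher there, Ddit3 and Atf5 respectively. At 2% oxygen, differentiation against growth medium gave 4 higher, 4 lower and 2 not past the threshold, beside 23.3% of all genes higher and 17.6% lower. These last counts depended on single libraries: without either hypoxic growth library they were 2 higher and 1 lower, and without either normoxic differentiation library 2 were lower. The medians of the 10 log2 changes in that order were 2.56, 3.19, -1.26 and -0.21, and those of all genes tested were -0.14, -0.20, 0.15 and 0.07. After median-of-ratios scaling of the libraries the medians of all genes were -0.04, 0.03, -0.03 and 0.03, and those of the 10 genes 2.67, 3.45, -1.46 and -0.26. Changes are differences of log2(FPKM + 1), a scale on which genes at a few FPKM or less appear to change less than they did. In normoxic growth medium the means of Trib3 (1.70 FPKM), Chac1 (2.21) and Sesn2 (3.31) were that low. Their log2 changes from that group are therefore smaller than the fold changes of the means given with them.

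**Figure D1:**
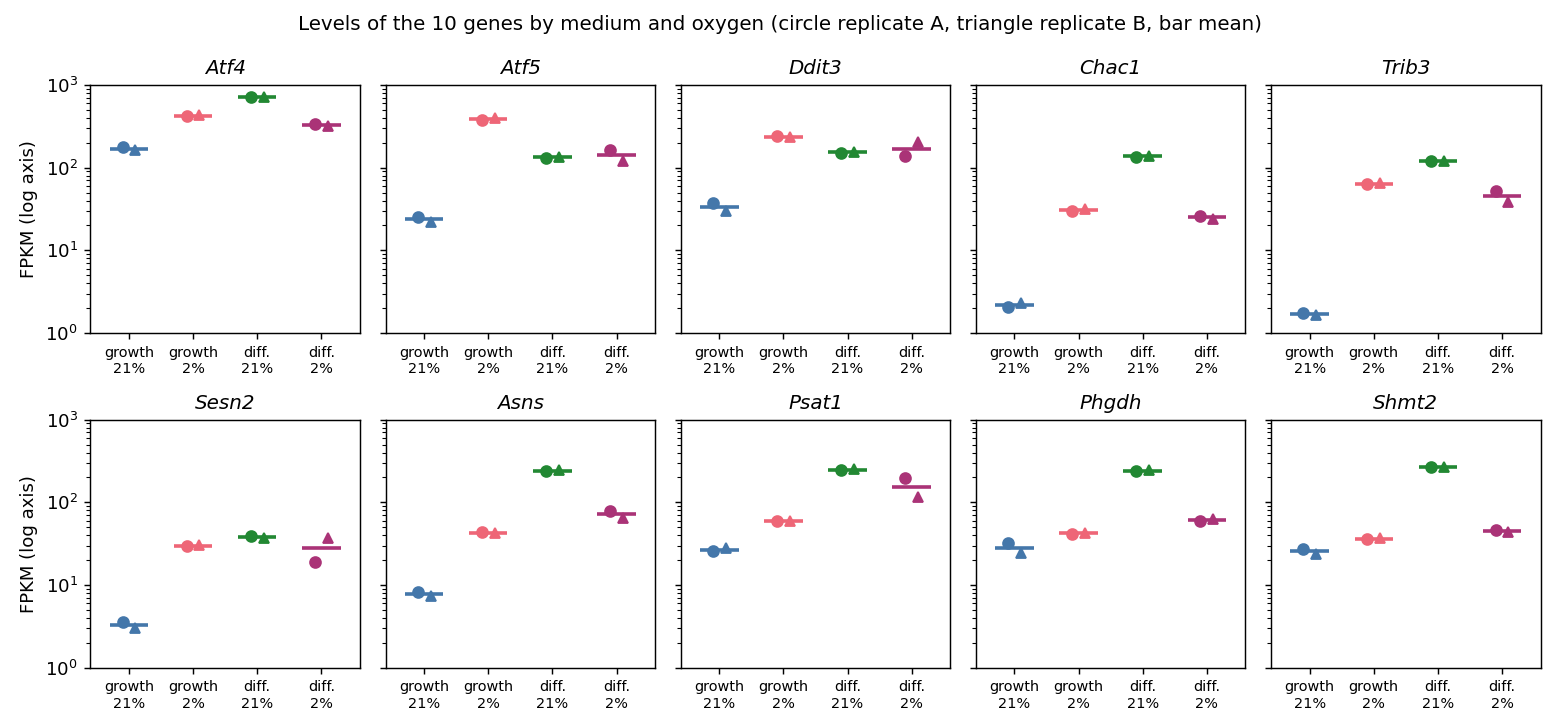
Level of each of the 10 genes in FPKM on a log axis, in growth and differentiation (diff.) medium at 21% and 2% oxygen; circles are replicate A, triangles replicate B and bars the mean of the 2 libraries. Every gene was lowest in both normoxic growth medium libraries, and 8 of the 10, all but Atf5 and Ddit3, had their highest mean in normoxic differentiation medium.

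Atf4, which encodes the factor that gives the response its name, had the highest level of the 10 genes per transcript length in each of the 8 libraries. It stood at 177 and 161 FPKM in growth medium at 21% oxygen and 426 and 428 at 2% oxygen, and 705 and 722 in differentiation medium at 21% oxygen and 334 and 316 at 2% oxygen (replicates A and B). No groups overlapped, and hypoxic differentiation medium lay between the growth medium groups. Hypoxia raised Atf4 in growth medium by 1.33 ± 0.08 on the log2 scale (SE; limma, adjusted p 9.65e-05), a 2.52-fold rise of the mean from 169 ± 10.8 to 427 ± 1.60 FPKM (SD, n = 2). Differentiation medium at 21% oxygen raised it 4.22-fold to 714 ± 12 FPKM (log2 change 2.07 ± 0.08, adjusted p 2.85e-06). Within differentiation medium the direction of the oxygen difference was the opposite: the mean was 325 ± 13.1 FPKM at 2% oxygen, a log2 change of -1.13 ± 0.08 (limma, adjusted p 3.55e-05). The mRNA level says nothing of the translation of Atf4, the step at which the pathway is best known to act.

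Atf5 encodes a related bZIP factor whose mRNA is also under upstream reading frame control and whose targets include mitochondrial stress genes. Its levels were 25.4 and 22.2 FPKM in growth medium at 21% oxygen and 379.6 and 402 at 2% oxygen, and 132 and 135 in differentiation medium at 21% oxygen and 162 and 122 at 2% oxygen. The hypoxic growth medium libraries were far above all others, and the normoxic and hypoxic differentiation libraries overlapped. The rise in hypoxic growth medium was 16.4-fold (log2 change 3.98 ± 0.14, limma adjusted p 1.64e-05) and that in normoxic differentiation medium 5.62-fold (2.44 ± 0.14, adjusted p 1.54e-05). Between the oxygen levels in differentiation medium the difference was 0.07 ± 0.14 (adjusted p 0.669), with a 95% interval from -0.26 to 0.41. Without hypoxic differentiation replicate B it was 0.28 (adjusted p 0.046), and without replicate A it was -0.13. Set against Atf4 in the same library, the FPKM of Atf5 was 0.144 and 0.137 of it in normoxic growth medium and 0.187 in both normoxic differentiation libraries. In hypoxia the ratio was 0.891 and 0.938 in growth medium and 0.486 and 0.386 in differentiation medium, so every hypoxic library had a higher ratio than every normoxic library. The same held for Ddit3, at 0.408 to 0.642 of Atf4 in the hypoxic libraries and 0.186 to 0.215 in the normoxic ones. It did not hold for Trib3 or Asns.

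Ddit3 encodes CHOP, a C/EBP family factor induced by ATF4 that takes part in stress-linked cell death. It stood at 37.2 and 30.1 FPKM in growth medium at 21% oxygen and 239 and 233 at 2% oxygen, and 151 and 155 in differentiation medium at 21% oxygen and 136 and 203 at 2% oxygen. As with Atf5, hypoxic growth medium was the highest group, while the hypoxic differentiation libraries lay on either side of the normoxic differentiation libraries. Ddit3 rose 7.01-fold with hypoxia in growth medium (log2 change 2.78 ± 0.19, limma adjusted p 0.000137) and 4.54-fold with differentiation medium at 21% oxygen (2.16 ± 0.19, adjusted p 8.75e-05). In differentiation medium the oxygen difference was 0.12 ± 0.19 (adjusted p 0.595, 95% interval -0.33 to 0.57). It was 0.40 without hypoxic differentiation replicate A (adjusted p 0.0295) and -0.16 without replicate B.

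Trib3 encodes a pseudokinase that binds ATF4 and CHOP and damps their activity, and it is among the most sensitive readouts of the pathway. Its level was 1.75 and 1.66 FPKM in normoxic growth medium, 64.2 and 64.3 in hypoxic growth medium, 119.8 in both normoxic differentiation libraries, and 52.8 and 38.8 in hypoxic differentiation medium. The normoxic growth libraries were near the floor of the scale and no groups overlapped. The rise with hypoxia in growth medium was 37.7-fold (log2 change 4.59 ± 0.14, limma adjusted p 8.79e-06), the largest of the 10 genes and the 14th highest change of the 12389 tested. Differentiation medium at 21% oxygen raised it 70.3-fold (5.48 ± 0.14, adjusted p 4.32e-07). Under hypoxia in differentiation medium it was lower by a log2 change of -1.38 ± 0.14 (limma, adjusted p 0.000156).

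Chac1, which encodes a glutathione-degrading enzyme, had similar levels at 2% oxygen in both media, with means 1.22-fold apart. It was at 2.09 and 2.32 FPKM in growth medium at 21% oxygen and 29.9 and 31.2 at 2% oxygen, and 135 and 139 in differentiation medium at 21% oxygen and 26.0 and 24.2 at 2% oxygen. Hypoxia thus went with a 13.9-fold higher mean in growth medium (log2 change 3.30 ± 0.08, limma adjusted p 3.05e-06) and with a lower one in differentiation medium (-2.41 ± 0.08, adjusted p 1.36e-06). Differentiation medium at 21% oxygen raised Chac1 62.2-fold (5.43 ± 0.08, adjusted p 1.82e-07).

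Sesn2 encodes sestrin 2, a leucine sensor that restrains the growth kinase complex mTORC1. It was at 3.57 and 3.05 FPKM in growth medium at 21% oxygen and 29.4 and 30.1 at 2% oxygen, and 39.7 and 37.6 in differentiation medium at 21% oxygen and 19.1 and 37.4 at 2% oxygen. The gap between the last pair, 1.96-fold, was the widest between replicates for any of the 10 genes in any group, and it reached across the hypoxic growth medium values. Sesn2 rose 9.0-fold with hypoxia in growth medium (log2 change 2.84 ± 0.27, limma adjusted p 0.000451) and 11.7-fold with differentiation medium at 21% oxygen (3.20 ± 0.27, adjusted p 7.85e-05). Its oxygen difference in differentiation medium, -0.51 ± 0.27, did not pass the threshold (adjusted p 0.137, 95% interval -1.16 to 0.14). With the libraries rescaled by median of ratios it did pass (-0.72, adjusted p 0.028), and it moved with the divergent pair: it was -0.98 without hypoxic differentiation replicate B (adjusted p 0.000337) and -0.05 without replicate A.

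Asns encodes asparagine synthetase, a long-studied example of control through the amino acid response element. It was at 8.21 and 7.29 FPKM in growth medium at 21% oxygen and 44.1 and 42.1 at 2% oxygen, and 237 and 243 in differentiation medium at 21% oxygen and 78.5 and 64.4 at 2% oxygen. The groups did not overlap, and the levels ran from normoxic growth through hypoxic growth and hypoxic differentiation to normoxic differentiation medium. Hypoxia raised Asns 5.57-fold in growth medium (log2 change 2.34 ± 0.11, limma adjusted p 4.15e-05), and differentiation medium at 21% oxygen raised it 31.0-fold (4.79 ± 0.11, adjusted p 3.26e-07). In differentiation medium it was lower at 2% oxygen (-1.74 ± 0.11, adjusted p 1.99e-05).

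Phgdh, Psat1 and Shmt2 serve the synthesis of serine and its use: PHGDH and PSAT1 catalyse the first steps from the glycolytic intermediate 3-phosphoglycerate, and SHMT2 is the mitochondrial enzyme that splits serine into glycine and a folate-bound carbon unit. Phgdh was at 32.2 and 24.2 FPKM in growth medium at 21% oxygen and 41.4 and 43.2 at 2% oxygen, and 239 and 244 in differentiation medium at 21% oxygen and 60.3 and 63.1 at 2% oxygen. Shmt2 followed it closely, at 27.4 and 23.7, 36.2 and 36.8, 271.2 and 270.8, and 46.2 and 44.1 FPKM in the same order. For both genes normoxic differentiation medium was far above the other 3 groups, which lay within a 2.18-fold range of means for Phgdh and 1.77-fold for Shmt2. Hypoxia in growth medium raised Phgdh by 0.58 ± 0.13 (limma, adjusted p 0.0117) and Shmt2 by 0.50 ± 0.08 (adjusted p 0.00426), and the call for Phgdh was lost without hypoxic growth replicate A (adjusted p 0.0562) or B (adjusted p 0.073). In differentiation medium, 2% oxygen went with a lower level of both, by a log2 change of -1.95 ± 0.13 for Phgdh (limma, adjusted p 2.46e-05) and -2.56 ± 0.08 for Shmt2 (adjusted p 1.32e-06), the lowest of the 10 changes.

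Psat1 was at 25.5 and 27.9 FPKM in growth medium at 21% oxygen and 59.8 and 59.3 at 2% oxygen, and 248 and 252 in differentiation medium at 21% oxygen and 195.5 and 115 at 2% oxygen. In differentiation medium its mean at 2% oxygen was 0.622 of that at 21%, where the same ratio was 0.255 for Phgdh and 0.167 for Shmt2, and its hypoxic replicates were 1.70-fold apart. The oxygen difference in differentiation medium was -0.73 ± 0.22 (limma, adjusted p 0.0238). It was -1.11 without hypoxic differentiation replicate A and -0.35 without replicate B, and it missed the threshold without normoxic differentiation replicate A (adjusted p 0.0953) or B (adjusted p 0.105). The rise with hypoxia in growth medium, 1.13 ± 0.22 (adjusted p 0.00738), missed it without normoxic growth replicate A (1.06, adjusted p 0.0514). Differentiation medium at 21% oxygen raised Psat1 9.34-fold (3.18 ± 0.22, adjusted p 3.27e-05), Phgdh 8.55-fold (3.07 ± 0.13, adjusted p 3.86e-06) and Shmt2 10.6-fold (3.36 ± 0.08, adjusted p 4.50e-07).

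**Figure D2:**
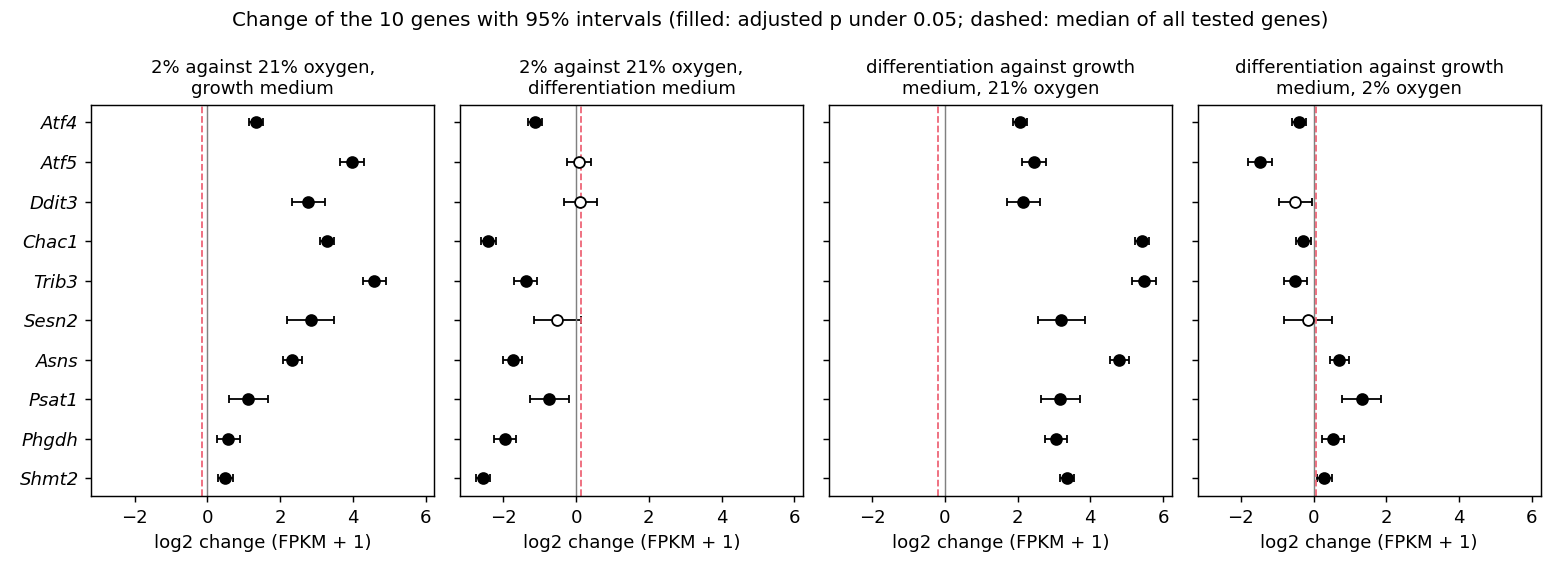
Fitted log2 change of FPKM + 1 for each gene in 4 comparisons, with 95% intervals from limma; filled points had an adjusted p under 0.05 and the dashed line is the median of all tested genes. All 10 points lie right of 0 for hypoxia in growth medium and for differentiation medium at 21% oxygen, and 7 filled points lie left of 0 for hypoxia in differentiation medium.

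The difference between the oxygen responses was itself tested as the interaction, the oxygen change in differentiation medium minus that in growth medium. It was below 0 past the threshold for 10 of 10 genes, where 18.7% of all genes tested were called lower and 35.4% higher. The values ran from -5.98 ± 0.19 for Trib3 (limma, adjusted p 3.11e-06) to -1.86 ± 0.31 for Psat1 (adjusted p 0.00281), with a median of -3.21 beside 0.27 over all genes. The summed muscle markers were also highest in normoxic differentiation medium and fell in hypoxia in both media, while the 10 genes rose with hypoxia in growth medium as those markers fell. The part of the muscle markers in the result was not tested.

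The enzymes and the regulators differed in how much of the rise in hypoxic growth medium they showed. This grouping by role was made after the values were seen and is a description. The 6 regulator and effector genes had a median log2 change of 3.07 in hypoxic growth medium, from 1.33 (Atf4) to 4.59 (Trib3), and the 4 enzyme genes 0.85, from 0.50 (Shmt2) to 2.34 (Asns). In differentiation medium at 21% oxygen the medians were close, 2.82 and 3.27. At 2% oxygen the calls of the sets pointed opposite ways between the media. Of the 6 regulators and effectors 0 were higher and 4 lower in differentiation than in growth medium, and of the 4 enzymes 4 were higher and 0 lower. Of all genes, 23.3% were higher and 17.6% lower. Only Atf5 (-1.47) and Psat1 (1.32) reached a log2 change of 1 in either direction, and the sets were formed with these values known.

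Those changes between media at 2% oxygen were small. The largest were those of Atf5 (-1.47 ± 0.14, limma adjusted p 0.000728) and Psat1 (1.32 ± 0.22, adjusted p 0.00457), followed by Asns (0.71 ± 0.11, adjusted p 0.00344). Atf4 (-0.39 ± 0.08, adjusted p 0.00976) and Phgdh (0.53 ± 0.13, adjusted p 0.0173) lost their calls without hypoxic growth replicate A (adjusted p 0.0643 and 0.0948) or B (0.0691 and 0.0745). Trib3 (-0.50 ± 0.14, adjusted p 0.0279) lost it without either replicate of hypoxic growth or normoxic differentiation medium (adjusted p 0.0636 to 0.12). Chac1 (-0.28 ± 0.08, adjusted p 0.0333) and Shmt2 (0.30 ± 0.08, adjusted p 0.0305) lost theirs in 5 of the 8 fits with 1 library left out, up to an adjusted p of 0.172 for Chac1 and 0.135 for Shmt2. Ddit3, at -0.50 ± 0.19 (adjusted p 0.0721), passed without hypoxic differentiation replicate B (-0.79, adjusted p 0.00508). Sesn2, at -0.15 ± 0.27 (adjusted p 0.699), was 0.32 without hypoxic differentiation replicate A (adjusted p 0.04) and -0.62 without replicate B (adjusted p 0.00544), so its direction there depends on the library. With 1 library of a group left out, the lone library is assumed to vary like the other groups.

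**Figure D3:**
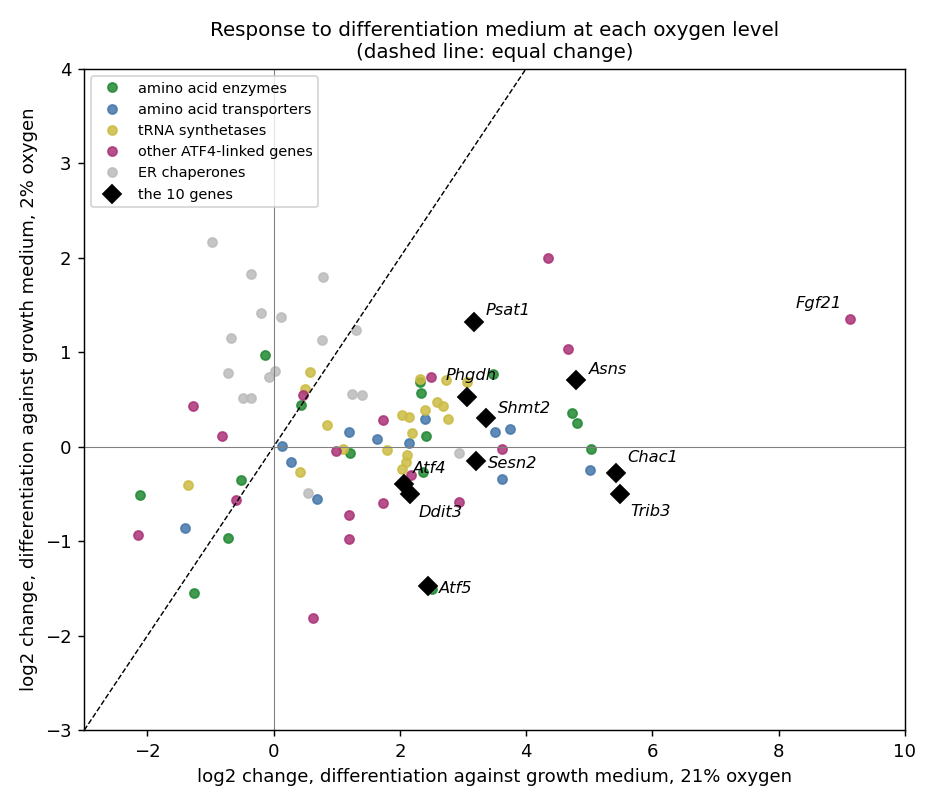
Log2 change of FPKM + 1 between differentiation and growth medium at 21% oxygen (horizontal) and at 2% oxygen (vertical), for the 10 genes (diamonds) and 5 lists of related genes (circles); the dashed line marks equal change at both oxygen levels. The 10 genes lie between 2.07 and 5.48 on the horizontal axis and between -1.47 and 1.32 on the vertical axis, all below the dashed line.

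Upstream of ATF4, 10 genes of the eIF2 axis were followed, of which 5 rose and 3 fell in differentiation medium at 21% oxygen (25.5% of all genes higher and 41% lower), with a median log2 change of 0.26. With hypoxia in growth medium 1 rose and 5 fell (13.5% of all genes higher and 28% lower; median -0.30), so the genes higher were near the share of all genes, and 0 fell without replicate B of either growth medium group and 1 fell without replicate A of either or without either normoxic differentiation library. Eif2ak3, which encodes PERK, the kinase of the unfolded protein response, was at 5.92 and 6.71 FPKM in growth medium at 21% oxygen and 6.34 and 6.29 at 2% oxygen, and 2.67 and 2.90 in differentiation medium at 21% oxygen and 9.94 and 9.83 at 2% oxygen. It was lowest in the normoxic differentiation libraries, where 8 of the 10 ATF4 response genes were highest: it fell in differentiation medium at 21% oxygen by 0.95 ± 0.10 on the log2 scale (limma, adjusted p 0.000205) and its change with hypoxia in growth medium was 0.00 ± 0.10 (adjusted p 0.997). Eif2ak4, which encodes GCN2, the sensor of uncharged tRNA, fell by 0.68 ± 0.15 in differentiation medium at 21% oxygen (limma, adjusted p 0.00653, and 0.054 without normoxic differentiation replicate B). Its change with hypoxia in growth medium was -0.30 ± 0.15 (adjusted p 0.15), a call gained without hypoxic differentiation replicate A (adjusted p 0.0235) or B (adjusted p 0.0243).

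Eif2ak1, which encodes the haem-regulated kinase HRI, was between 10.5 and 19.7 FPKM in all libraries and fell by 0.56 ± 0.12 with hypoxia in growth medium (limma, adjusted p 0.0122). That call was lost without any 1 of the 4 growth medium libraries (adjusted p 0.0528 to 0.0731). Eif2ak2, which encodes the double-stranded RNA kinase PKR, went from 5.36 and 6.87 FPKM in normoxic growth medium to 19.9 and 21.6 in normoxic differentiation medium (log2 change 1.62 ± 0.14, limma adjusted p 9.23e-05) and was at 5.18 and 6.13 in hypoxic differentiation medium. It was the only 1 of the 4 kinase genes to rise in normoxic differentiation medium on the deposited scale (Eif2ak1 also passed after both rescalings, at 0.48 and 0.34, and without either hypoxic differentiation library, at 0.21). mRNA levels of kinases carry no information on their activity, which was not measured.

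Ppp1r15a encodes GADD34, the inducible subunit of the phosphatase that restores eIF2 and itself a target of the pathway. It was at 10.5 and 9.14 FPKM in growth medium at 21% oxygen and 28.3 and 31.8 at 2% oxygen, and 99.3 and 100.9 in differentiation medium at 21% oxygen and 24.9 and 51.4 at 2% oxygen. Its group means had the order of those of the 4 enzyme genes, with a wide gap in the last pair, as for Sesn2. It rose by 1.52 ± 0.29 with hypoxia in growth medium (limma, adjusted p 0.00715, and 0.0502 without hypoxic growth replicate B) and by 3.22 ± 0.29 in differentiation medium at 21% oxygen (adjusted p 0.000111). Ppp1r15b, the constitutive subunit, stayed between 15.5 and 26.5 FPKM, with a log2 change of -0.05 ± 0.11 with hypoxia in growth medium (adjusted p 0.78).

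Genes that act beside the 10 in amino acid supply, and other genes linked to ATF4, were counted in 4 lists, beside all genes tested. Of all genes tested, 25.5% were higher and 41% lower in differentiation medium at 21% oxygen. With hypoxia in differentiation medium 37.5% were higher and 27.7% lower, and with hypoxia in growth medium 13.5% were higher and 28% lower. Of 20 cytosolic aminoacyl-tRNA synthetase genes, which charge tRNAs with amino acids, 19 rose and 1 fell in differentiation medium at 21% oxygen (limma, adjusted p under 0.05), with a median log2 change of 2.10 beside -0.20 over all genes. With hypoxia in differentiation medium 17 fell and 1 rose (median -1.10). Wars, the tryptophanyl synthetase gene, rose from 18.4 and 15.0 FPKM to 142 and 151 at 21% oxygen (3.06 ± 0.11, limma adjusted p 1.96e-06) and was at 37.1 and 34.2 in hypoxic differentiation medium. Qars, the glutaminyl synthetase gene, was the exception in both comparisons: it fell by 1.35 ± 0.09 with differentiation medium at 21% oxygen (limma, adjusted p 2.87e-05) and rose by 0.66 ± 0.09 with hypoxia in differentiation medium (adjusted p 0.000716). With hypoxia in growth medium 12 synthetase genes rose, led by Cars (2.42 ± 0.15, adjusted p 0.00011), and 5 fell, a count that moved with the libraries (0 without hypoxic growth replicate A, and 1 without replicate B or normoxic growth replicate A, 2 without either normoxic differentiation library). Of 13 synthetase genes with a promoter window, 5 held the composite letters (38.5%).

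The 12 amino acid transporter genes had a similar split: 10 rose and 1 fell in differentiation medium at 21% oxygen (median 1.90), and 1 rose and 11 fell with hypoxia in differentiation medium (median -1.79). Slc7a5, which encodes the light chain of the large neutral amino acid exchanger LAT1, was at 13.5 and 11.3 FPKM in growth medium at 21% oxygen and 48.7 and 51.0 at 2% oxygen, and 432 and 425 in differentiation medium at 21% oxygen and 45.5 and 38.1 at 2% oxygen. The rise at 21% oxygen was 5.01 ± 0.11 (limma, adjusted p 3.26e-07), and the oxygen change in differentiation medium was -3.33 ± 0.11 (adjusted p 1.49e-06). Slc7a1, the cationic amino acid transporter gene, also rose at 21% oxygen (3.75 ± 0.14, adjusted p 2.64e-06), while Slc1a4, a transporter of alanine, serine and cysteine, was the 1 gene past the threshold as higher with hypoxia in differentiation medium (0.54 ± 0.17, adjusted p 0.0311). That call was lost after median-of-ratios scaling (0.34, adjusted p 0.208), after upper-quartile scaling (adjusted p 0.0845), and without any 1 of the growth medium or normoxic differentiation libraries (adjusted p 0.0543 to 0.125). With hypoxia in growth medium 6 of the 12 rose and 3 fell. The composite letters were in windows of 2 of 8 transporter genes (25%).

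Of 16 other enzyme genes of serine, glycine, folate and amino acid metabolism, 10 rose and 4 fell in differentiation medium at 21% oxygen, and 1 rose and 10 fell with hypoxia in differentiation medium. Mthfd2, the mitochondrial folate enzyme downstream of SHMT2, was at 6.42 and 5.24 FPKM in growth medium at 21% oxygen and 24.6 and 24.8 at 2% oxygen, and 215 and 224 in differentiation medium at 21% oxygen and 21.4 and 27.4 at 2% oxygen. Cth, which makes cysteine from cystathionine, rose from 0.739 and 1.08 to 52.9 and 51.1 FPKM at 21% oxygen (log2 change 4.80 ± 0.12, limma adjusted p 4.43e-07). In growth medium hypoxia raised 8 and lowered 4 of the 16, with the largest rise in Aldh1l2, the mitochondrial folate dehydrogenase gene (2.28 and 2.98 to 62.3 and 56.6 FPKM, 4.06 ± 0.23, adjusted p 7.93e-05). Mthfd1l, a mitochondrial formate-producing enzyme gene, was the 1 gene that rose with hypoxia in both media (2.58 ± 0.14 in growth medium, adjusted p 6.84e-05, and 1.30 ± 0.14 in differentiation medium, adjusted p 0.000236). Glul, the glutamine synthetase gene, fell in all 4 comparisons, by 0.72 ± 0.08 to 1.55 ± 0.08. The letters were in windows of 3 of 13 genes (23.1%).

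Of 18 further genes linked to ATF4, 13 rose and 4 fell in differentiation medium at 21% oxygen, 11 rose and 3 fell with hypoxia in growth medium, and 6 rose and 8 fell with hypoxia in differentiation medium. In this last comparison 37.5% of all genes tested were higher and 27.7% lower, so the genes higher were near the share of all genes. Fgf21, the gene of the stress hormone, showed the steepest profile: 0.670 and 0.129 FPKM in growth medium at 21% oxygen and 1.83 and 1.87 at 2% oxygen, and 785 and 751 in differentiation medium at 21% oxygen and 6.05 and 6.52 at 2% oxygen. Its log2 change with differentiation medium at 21% oxygen was 9.13 ± 0.18 (limma, adjusted p 2.11e-07) and with hypoxia in differentiation medium -6.72 ± 0.18 (adjusted p 5.01e-07). Gdf15, the other hormone gene, was at 3.32 and 3.05, 32.4 and 31.8, 103 and 107, and 33.8 and 129.7 FPKM in the same order, so that its hypoxic differentiation libraries lay on either side of the normoxic ones. Its oxygen change in differentiation medium was -0.65 ± 0.53 (adjusted p 0.31), and it was 0.30 without hypoxic differentiation replicate A (adjusted p 0.0142) and -1.61 without replicate B (adjusted p 1.82e-05). Hypoxia raised Ero1l, an oxidase gene of the endoplasmic reticulum, in both media, by 5.29 ± 0.25 in growth medium (limma, adjusted p 4.15e-05) and 3.55 ± 0.25 in differentiation medium (adjusted p 3.24e-05). The death receptor gene Tnfrsf10b also rose in both, by 1.18 ± 0.24 (limma, adjusted p 0.00787, and 0.0558 without hypoxic growth replicate A) and 1.26 ± 0.24 (adjusted p 0.00306). So did Ddit4, an inhibitor of mTORC1 named here after its values were seen, from 59.2 and 51.2 to 228 and 223 FPKM (limma, adjusted p 0.000147) and from 114.8 and 106 to 191 and 249.5 FPKM (adjusted p 0.000841). The letters were in windows of 5 of 15 genes (33.3%).

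**Figure D4:**
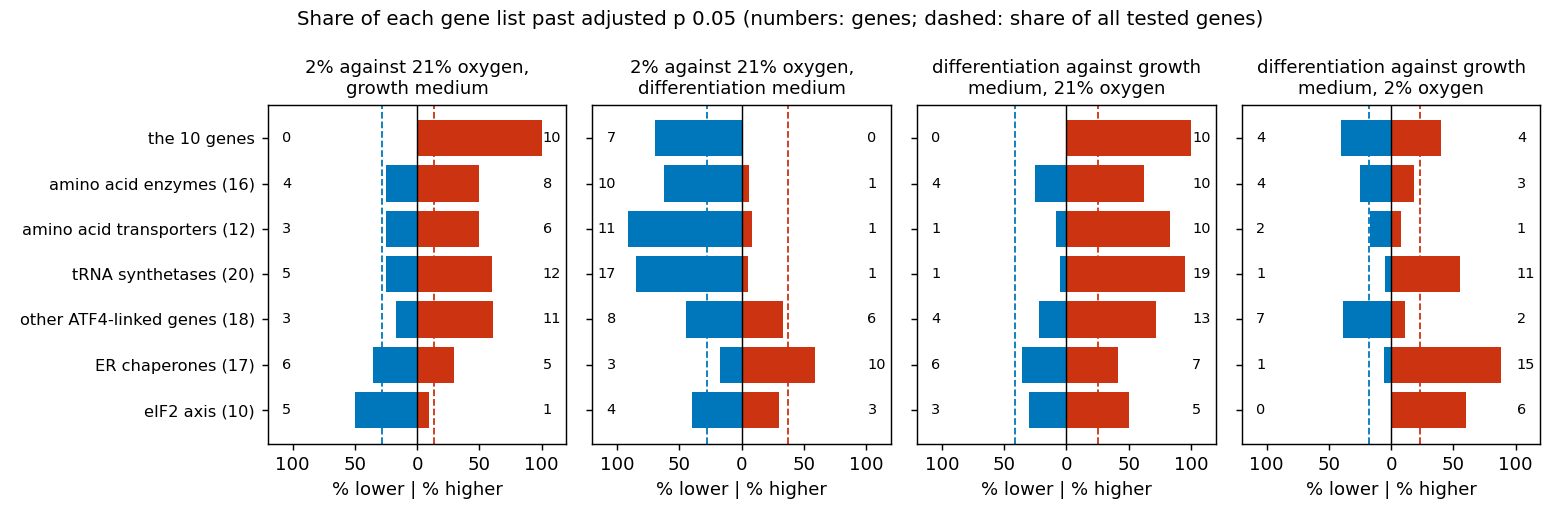
Share of each list past adjusted p 0.05, higher (right, red) and lower (left, blue), in 4 comparisons, with the number of genes at the bar ends; dashed lines give the share of all tested genes in that direction. In differentiation medium at 21% oxygen the bars of all 7 lists extend past the dashed line for higher genes (25.5%), from 7 of 17 ER chaperones to 19 of 20 tRNA synthetases and 10 of the 10 genes.

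The likeness of profiles was measured as the root-mean-square difference of gene-centred log2(FPKM + 1) over the 8 libraries, among 9861 genes with a mean of at least 5 FPKM in their highest group. It is a description, since the libraries share medium, oxygen and depth. For Phgdh the nearest genes outside the 10 were Wars (0.10), Pde2a (0.18) and Gars (0.22), and of the 10 Shmt2 was nearest (0.23). Around Asns these were P2rx3 (0.33), Atp2a3 (0.34) and Cdkn1a (0.37), with Chac1 at 0.43 among the 10. Trib3 had Adm2 (0.44), Aldh1l2 (0.44) and Cdsn (0.80) as nearest genes, and Chac1 (0.59) within the set. In normoxic growth medium the means of P2rx3 (0.0527 FPKM), Atp2a3 (0.252), Pde2a (0.407) and Adm2 (0.283) were under 1 FPKM. There the added 1 FPKM shrinks a change, so these genes are near on this scale and not in fold change. P2rx3 went from 0.0527 to 17.7 FPKM in normoxic differentiation medium, and Asns from 7.75 to 240. The widest distances of these 3 genes within the set were 1.55, between Phgdh and Atf5 and between Trib3 and Shmt2.

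Atf5, Ddit3 and Shmt2 each overlap other genes in RefSeq, and the use of strand in the counting is not given in the sources used here, so fragments of overlapping genes may be shared. Shmt2 overlaps Ndufa4l2, whose levels were 0.246 and 0.253 FPKM in growth medium at 21% oxygen and 3.20 and 3.19 at 2% oxygen, and 3.84 and 2.06 in differentiation medium at 21% oxygen and 19.6 and 6.49 at 2% oxygen. Ddit3 overlaps Mbd6 and Mars, and Mars was at 16.1 to 23.1 FPKM in all libraries but the normoxic differentiation pair, at 74.6 and 79.1. Atf5 overlaps Nup62, at 17.9 to 40.6 FPKM, and Il4i1b. Phgdh has a pseudogene, Phgdh-ps1, so its value is uncertain to the extent that reads were split between them.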

How the data were processed

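RNA-seq libraries were stranded total RNA libraries from Trizol-extracted RNA, per the labels' protocols. STAR 2.5.1b, Cufflinks 2.2.1 and the build mm9 are named in the submitters' processing notes. The authors deposited FPKM per gene and library. The annotation, the use of strand and any scaling between libraries are not given in the sources used here. Depth in fragments is unknown, so relative depth was read from the smallest steps of low values. The 8 chromatin and 8 input libraries of the series were not analysed here.

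FPKM values were tested as log2(FPKM + 1) with limma 3.58.1 (R 4.3.3; moderated statistics with an intensity trend, two-sided) for 12389 of the 17914 genes above 0, those whose mean reached 1 FPKM in any group. The 4 group means were fitted to 8 libraries, with 4 residual and 2.61 prior degrees of freedom. The p-values were adjusted by the Benjamini-Hochberg method within each contrast, with a threshold of 0.05. The fit was tested on simulated data. No block was used, since the letters A and B are not said to mark a shared day or batch. Correlations of the A minus B differences between groups ran from -0.166 to 0.042, which does not exclude a shared day or batch.

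The 10 genes and the lists were chosen with earlier results of these data known. Beside the 10 genes and the eIF2 kinase and phosphatase genes, up to 2 rises and 2 falls per list and contrast could be named, by size, from those past the threshold with a highest group mean of 5 FPKM or more and no library overlap. Genes named by profile likeness are the 3 nearest, and overlapping genes were named for their position after the values were seen. Alternatives were 2 other scalings, a pseudocount of 0.1, no expression filter, a replicate block, only the libraries compared, each library left out and a log2 change of at least 1.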

Additional observations from a re-analysis of the deposited data

Results flagged for a closer look

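For each of the 10 genes the oxygen response differed between the media in a direct test, the limma interaction term (oxygen change in differentiation medium minus that in growth medium, Benjamini-Hochberg adjusted over 12389 genes). Among the transcription factor genes it was -2.46 for Atf4 (limma, adjusted p 1.36e-05), -3.91 for Atf5 (adjusted p 2.08e-05) and -2.66 for Ddit3 (adjusted p 0.000308). Among the stress effector genes it was -5.98 for Trib3 (limma, adjusted p 3.11e-06), -5.71 for Chac1 (adjusted p 1.96e-06) and -3.35 for Sesn2 (adjusted p 0.00056). Among the enzyme genes it was -4.08 for Asns (limma, adjusted p 5.84e-06), -1.86 for Psat1 (adjusted p 0.00281), -2.53 for Phgdh (adjusted p 8.17e-05) and -3.06 for Shmt2 (adjusted p 6.76e-06). The direction was the same in the A and in the B libraries for all 10 genes, though the letters are not said to mark a shared day or batch. Groups of 2 libraries were not tested for outlying samples.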

How the results depend on the processing

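Over the 10 genes and the 5 comparisons, 740 of 790 values under an alternative kept their side of the threshold. A further 41 lost a call, 8 gained one and 1 passed in the opposite direction. Values past the threshold in neither fit were counted as kept whatever their direction. Among these, Atf5 (-0.13) and Ddit3 (-0.16) changed direction with hypoxia in differentiation medium. The counts of 10 genes higher with hypoxia in growth medium and with differentiation medium at 21% oxygen, and of 10 below 0 in the interaction, moved by at most 1.5-fold under every alternative run. With hypoxia in differentiation medium, Psat1 was no longer called lower with only the libraries compared (-0.73, limma adjusted p 0.094). Sesn2 was called lower after median-of-ratios scaling (-0.72, limma adjusted p 0.028). Over all alternatives the change there ran from -1.11 to -0.35 for Psat1 and from -0.98 to -0.05 for Sesn2. For Atf5 it ran from -0.13 to 0.28 and for Ddit3 from -0.16 to 0.40. Between media at 2% oxygen the counts moved with single libraries, as given above. There 1 was higher and 1 lower when a log2 change of at least 1 was required, and 2 were lower with only the libraries compared. Sesn2 between media at 2% oxygen was 0.32 and Gdf15 with hypoxia in differentiation medium 0.30 without hypoxic differentiation replicate A, both reversed, against -0.62 and -1.61 without replicate B, and the cause was not tested. With the replicate letter as a block, 3 in place of 4 genes were lower between media at 2% oxygen, as with the letters crossed between groups, which was added after seeing the data, and no other count of the 10 genes moved. Median-of-ratios scaling moved the share of higher genes among all calls from 38.4% to 53.6% for differentiation medium at 21% oxygen, from 57.5% to 46.5% for hypoxia in differentiation medium, from 32.6% to 43.4% for hypoxia in growth medium and from 65.5% to 47.3% for the interaction. Upper-quartile scaling gave 45.6%, 54.3%, 50.6% and 52.3% in that order, and 45.7% in place of 56.9% between media at 2% oxygen. Of the list counts, 145 of 948 moved by over 1.5-fold. With 2 libraries a group and no fragment counts, precision is limited by their number, and values near 1 FPKM are the least certain.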

Other observations

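Genes for chaperones and folding factors of the endoplasmic reticulum, the targets of the ATF6 and XBP1 branches of the unfolded protein response, were counted beside the amino acid genes. Of 17, 7 rose and 6 fell in differentiation medium at 21% oxygen (limma, adjusted p under 0.05; median log2 change 0.02; 25.5% of all genes higher and 41% lower), and 5 rose and 6 fell with hypoxia in growth medium (median -0.16; 13.5% of all genes higher and 28% lower), with 2 to 3 rising without either hypoxic growth library or normoxic growth replicate A. With hypoxia in differentiation medium 10 rose and 3 fell (median 0.59), beside 37.5% of all genes higher and 27.7% lower. Between media at 2% oxygen 15 rose and 1 fell (median 0.80; 23.3% of all genes higher and 17.6% lower), and 8 rose when a log2 change of 1 or more was required. Sdf2l1, a chaperone complex subunit gene, was at 14.2 and 10.7 FPKM in growth medium at 21% oxygen and 7.88 and 8.18 at 2% oxygen, and 6.16 and 5.46 in differentiation medium at 21% oxygen and 38.3 and 41.2 at 2% oxygen. Its hypoxic differentiation libraries were above all others, and the interaction was 3.15 ± 0.20 (limma, adjusted p 4.80e-05). Herpud1, a gene of protein disposal from the endoplasmic reticulum, instead rose by 2.94 ± 0.11 in differentiation medium at 21% oxygen (limma, adjusted p 2.57e-06) and had an interaction of -3.01 ± 0.16 (adjusted p 2.34e-05). The composite promoter letters were in windows of 1 of 15 genes of this list (6.67%), and that gene was Herpud1. A link between the letters and its change was not tested.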
